A study of Mus musculus with 14 samples.

Results

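Glycolysis is carried out by a chain of enzymes that splits glucose to pyruvate, with lactate dehydrogenase turning pyruvate to lactate at its end. The genes examined were 10 enzymes of this chain, in pathway order Hk2, Gpi1, Aldoa, Tpi1, Gapdh, Pgk1, Pgam1, Eno1, Pkm and Ldha. Their members on the array were the probe sets, outside the array's control probe sets, whose platform annotation gives 1 of these symbols alone. There were 10 such probe sets of 12422, and they covered 7 of the 10 genes: Hk2, Aldoa and Pkm with 2 probe sets each, and Tpi1, Pgk1, Pgam1 and Ldha with 1 each. The annotation gave no probe set to Gpi1 or Eno1, and it gave Gapdh probe sets that also carry other symbols, so these 3 genes have no member.

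RNA of mouse cerebellar cells was measured at 3 stages on 14 arrays: granule cell precursors at an age of 7 days (GCP, n = 4), preneoplastic cells at 6 weeks (pretumor, n = 5) and tumor cells at 10 to 25 weeks, from animals showing signs of medulloblastoma (tumor, n = 5). All groups came from mice heterozygous for patched (patched+/-), which lack 1 working copy of Ptch1, the receptor that restrains hedgehog signalling, and which were bred with 129X1/SvJ mice. No group was wild type, and age and stage cannot be told apart. Cerebella were digested with papain and DNase, and cells at the 35% to 65% Percoll interface were frozen without flow sorting, so every array holds a mixture of cells. Nothing in the labels ties each sample to an animal of its own, so the spread behind a p-value is that among samples and could be technical in part.

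The steps are shared by nearly all cells. Hexokinase traps glucose, aldolase and triosephosphate isomerase make the 3-carbon sugars, Gapdh, Pgk1, phosphoglycerate mutase and enolase carry these to phosphoenolpyruvate, and pyruvate kinase makes pyruvate. In the developing cerebellum, hedgehog signalling is known to raise Hk2 and glucose use by dividing granule cell precursors, and medulloblastomas are known for aerobic glycolysis, in which glucose is turned to lactate although oxygen is present. The hypoxia factor Hif1 and the transcription factor Myc are known activators of many of these genes.

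Values are log2 of the deposited array intensity, and levels of a gene are compared for 1 probe set between samples, not between probe sets. The sums of marker lists given below add linear intensities of different probe sets. Probe sets with a strong signal weigh more in such a sum, and a share of it is not a share of RNA. The lowest intensities, below 16 (4 on the log2 scale), form a narrow band called the low band here, which held 70.5% of all values. The highest and lowest array medians differed by 0.094 on the log2 scale. GCP 1 resembled GCP 2 (r = 0.9976) and GCP 3 resembled GCP 4 (r = 0.9975) more than arrays correlated across these pairs (0.9938 to 0.9955). Pretumor 2 with pretumor 4 had 0.9980, and tumor 4 with tumor 5 had 0.9956, where the other tumor pairs had 0.9831 to 0.9916. So the 4 GCP arrays may count for fewer, and so may the 5 arrays of each later group. Pretumor 3 and tumor 2 stood furthest from the other arrays of their groups. Of the granule lineage markers, 12 of 15 were measured. Zic1, a granule lineage transcription factor, averaged 12.64 ± 0.21 in tumor and 12.74 ± 0.11 in GCP samples, while Atoh1, the defining factor of these precursors, lay in the low band in all 3 groups, along with Gli1 and Gli2. Pax6 averaged 8.31 ± 0.33 in tumor and 10.54 ± 0.21 in GCP samples, and Neurod1 11.58 ± 0.46 and 12.83 ± 0.09. By the test given below, 3 of the 12 measured were lower in tumor than in GCP samples and 0 higher. In such mixtures, fewer cells of a type and less RNA per cell cannot be told apart.

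Promoters are shown for 3 members, since Tpi1 and Pgam1 were the members whose levels changed and Ldha is the textbook Hif1 target among them. Each window is the 250 bases before the gene's start, from RefSeq on build GRCm38.p6, written 5′ to 3′ on the gene's strand. The letters searched were ACGTG, the core bound by Hif1, GCGTG, a variant of that core, and CACGTG, the site known for Myc. Both strands were searched, and CACGTG contains ACGTG. Capitals mark these letters or their reverse complement. The Tpi1 window is chr6:124814159-124814408 on the minus strand, the Pgam1 window is chr19:41911621-41911870 on the plus strand, and the Ldha window, at the first of its 2 listed starts, is chr7:46845554-46845803 on the plus strand.
Tpi1: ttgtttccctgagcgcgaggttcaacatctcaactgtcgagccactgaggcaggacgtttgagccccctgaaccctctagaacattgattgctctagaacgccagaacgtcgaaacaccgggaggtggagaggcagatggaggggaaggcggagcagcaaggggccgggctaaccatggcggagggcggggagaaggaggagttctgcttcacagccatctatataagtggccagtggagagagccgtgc
Pgam1: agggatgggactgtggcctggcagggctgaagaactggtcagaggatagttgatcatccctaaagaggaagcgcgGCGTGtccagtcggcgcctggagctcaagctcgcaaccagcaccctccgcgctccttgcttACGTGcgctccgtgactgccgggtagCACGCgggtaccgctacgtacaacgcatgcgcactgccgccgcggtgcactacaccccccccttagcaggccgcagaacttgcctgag
Ldha: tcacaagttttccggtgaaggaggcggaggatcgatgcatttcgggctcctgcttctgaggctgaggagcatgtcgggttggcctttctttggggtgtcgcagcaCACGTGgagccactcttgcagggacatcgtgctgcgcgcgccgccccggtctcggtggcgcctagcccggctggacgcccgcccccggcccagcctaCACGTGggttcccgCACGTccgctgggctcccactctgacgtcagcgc

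The Tpi1 window held none of the 3 motifs. The Pgam1 window held them at 3 places, and the Ldha window held them at 3 places, 2 of these CACGTG. Over the 7 measured genes there were 11 windows, because Aldoa has 3 listed starts and Pkm and Ldha have 2 each. ACGTG stood in 7 of the 11 windows and in 6 of the 7 genes, all but Tpi1, GCGTG in 2 windows and CACGTG in 1. A pair of Aldoa windows shares 174 bases; with 1 of them dropped, ACGTG stood in 6 of 10 windows. Among 32851 mouse windows of the same length, 16.6% held ACGTG, 28.2% held GCGTG and 6.02% held CACGTG. A match is a run of letters and does not show binding.

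The first comparison sets the preneoplastic stage against the precursors, in mice of 1 genotype. Tpi1 and Pgam1 were lower in pretumor than in GCP samples, and no other member passed the test. In tumor against GCP samples Tpi1 was lower and was the only member called, and in tumor against pretumor samples no member was called. With limma and Benjamini-Hochberg adjustment over all 12422 probe sets, the threshold for a call was an adjusted p below 0.05. In pretumor against GCP 2 of 10 member probe sets were called, both lower, where 4.36% of all probe sets were called, 1.67% higher and 2.69% lower. In tumor against GCP 1 of 10 was called, lower, where 4.60% of all were called, 1.41% higher and 3.19% lower. In tumor against pretumor 0 of 10 were called, where 0.998% of all were called, 0.209% higher and 0.789% lower. Most members lie above the low band, where calls were more frequent: among probe sets with a group mean of 16 or more, 8.92%, 10.1% and 2.11% were called in the 3 comparisons, in the same order. Before adjustment 3, 4 and 3 member probe sets had a p below 0.05. The median difference over the member probe sets was 0.0012, -0.03 and -0.02, beside -0.0052, 0.0024 and 0.01 over all probe sets. Taking each gene by its probe set with the highest mean, the median over the 7 member genes was -0.39, -0.04 and 0.01. Over all genes it was -0.013, 0.0029 and 0.018. The comparisons with GCP share the same 4 GCP arrays and are not independent of each other.

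**Figure D1:**
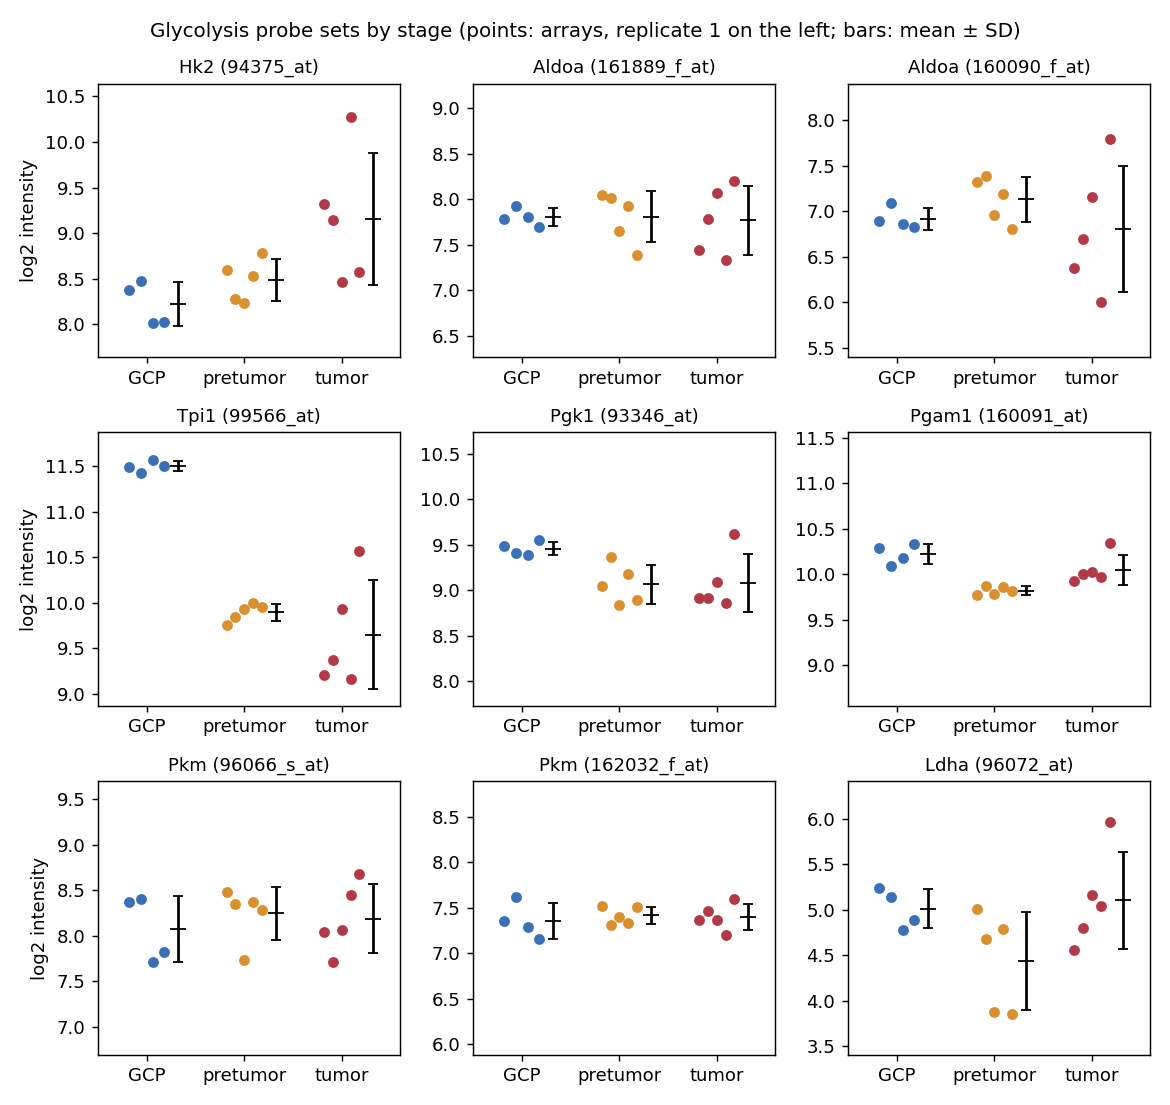
Log2 intensity of the member probe sets on each of the 14 arrays, by stage, with points for arrays and bars for the group mean and SD. The Tpi1 panel has GCP arrays from 11.43 to 11.57, pretumor arrays from 9.76 to 10.00 and tumor arrays spread from 9.17 to 10.57.

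Hk2 encodes the inducible hexokinase that catalyses the first step. Its probe set 94375_at stood at 8.37, 8.48, 8.01 and 8.02 in GCP 1 to 4, at 8.60, 8.27, 8.23, 8.53 and 8.78 in pretumor 1 to 5, and at 9.32, 9.15, 8.46, 10.27 and 8.58 in tumor 1 to 5. Tumor 4 was far above the rest, tumor 3 and tumor 5 lay within the range of the pretumor arrays, and the groups overlapped. The mean was 9.16 ± 0.72 in tumor (SD, n = 5) and 8.22 ± 0.24 in GCP samples (SD, n = 4), a difference of 0.93 (95% interval 0.26 to 1.60) that did not pass the test (limma, adjusted p = 0.129). Against pretumor samples, at 8.48 ± 0.23, the tumor difference was 0.67 (0.04 to 1.30, adjusted p = 0.399). Pretumor minus GCP was 0.26 (-0.41 to 0.93, adjusted p = 0.816). With only probe sets of a mean of 16 or more tested, the tumor difference from GCP passed at an adjusted p of 0.0496. The other Hk2 probe set, 161313_at, lay in the low band on every array.

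Aldoa encodes the aldolase that splits fructose bisphosphate, and its 2 probe sets did not pass in any comparison. Probe set 161889_f_at averaged 7.80 ± 0.10 in GCP, 7.80 ± 0.28 in pretumor and 7.77 ± 0.38 in tumor cells. Its tumor minus GCP difference was -0.04, and the 95% interval, -0.44 to 0.37, leaves room for a modest change either way. Probe set 160090_f_at averaged 6.92 ± 0.12, 7.13 ± 0.25 and 6.81 ± 0.69 at the same 3 stages. Its tumor arrays ran from 6.01 in tumor 4 to 7.79 in tumor 5, a spread wider than any difference between the group means.

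Tpi1 encodes triosephosphate isomerase, which interconverts the 3-carbon sugars made by aldolase. Probe set 99566_at stood at 11.50, 11.43, 11.57 and 11.51 in GCP 1 to 4, at 9.76, 9.84, 9.93, 10.00 and 9.96 in pretumor 1 to 5, and at 9.21, 9.37, 9.94, 9.17 and 10.57 in tumor 1 to 5. Every later array was below every GCP array, the pretumor arrays lay close together, and the tumor arrays spread on both sides of them. Tpi1 averaged 9.90 ± 0.10 in pretumor and 11.50 ± 0.06 in GCP samples and was 3.04-fold lower in pretumor (log2 difference -1.60, SE 0.24, adjusted p = 0.00258). It averaged 9.65 ± 0.60 in tumor samples and was 3.60-fold lower there than in GCP samples (-1.85, SE 0.24, adjusted p = 0.000794). Tumor minus pretumor was -0.25 (95% interval -0.73 to 0.24, adjusted p = 0.745). Both calls against GCP held under 26 of 26 alternative settings, with differences from -1.72 to -1.56 in pretumor and from -2.08 to -1.73 in tumor samples.

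Markers of other cells moved in the same comparisons as Tpi1. Of the astrocyte and Bergmann glia list 10 of 13 genes were measured, and their summed intensity was 11532 to 15222 in GCP, 2065 to 3418 in pretumor and 829 to 2430 in tumor cells. Fabp7 alone made up 66.9% to 77.2% of the sum on the GCP arrays, and the other 9 genes summed to 2958 to 4952 in GCP, 1115 to 2329 in pretumor and 477 to 958 in tumor cells. In this list 1 gene was called lower (Fabp7) and 1 higher (Aldoc) in pretumor against GCP, and 6 were called lower in tumor against GCP. Gfap, Slc1a2 and Aldoc, defining astrocyte genes, lay in the low band in all groups, and Aqp4 did so in tumor samples. The granule lineage list summed to 15752 to 19371 in GCP, 9405 to 13390 in pretumor and 10162 to 15002 in tumor cells, with Pax6, Neurod1 and Cbln1 called lower in both comparisons with GCP. Cbln1 lay in the low band in all groups. The endothelium and pericyte list (12 of 12 measured) summed to 118 to 160, 73.3 to 103 and 52.4 to 73.4 in the same order, with Cdh5, Tie1, Kdr and Cldn5 called lower in both, and at least 10 of its genes in the low band in every group. Cdh5, Tie1 and Kdr were among these in all groups, and so were Tek and Vwf, also called lower in tumor against GCP. The erythrocyte list (4 of 6 measured) summed to 1923 to 4374, 747 to 3418 and 16.5 to 391, with Hbb-b2 and Hba-a1 called lower in tumor against GCP and Alas2 and Slc4a1 in the low band throughout. The Purkinje cell and interneuron list (7 of 8 measured) summed to 81.4 to 182, 42.2 to 97.4 and 29.1 to 56.3. Gad1 and Slc32a1 of it were called lower in both comparisons with GCP, but Slc32a1, Pcp2, Pvalb and Gad2 lay in the low band throughout. Calb1 and Car8 lay above that band in pretumor samples only. The median difference of the list from GCP was 0.09 in pretumor and -0.63 in tumor samples. The dividing cell list, 13 of 15 measured, summed to 6393 to 6704, 5658 to 8774 and 5515 to 8775, which overlap. In pretumor against GCP it had 2 genes called higher (Mcm3, Cdc6) and 3 lower (Ccnb2, Cdk1, Tk1). Of all genes 1.99% were called higher and 3.25% lower there. In tumor against GCP 2 of the list were higher (Mcm3, Cdc6), beside 1.70% of all genes, and none was lower. Other lists had a higher sum at a later stage. The microglia and macrophage list (12 of 13 measured) summed to 148 to 376 in GCP, 804 to 1356 in pretumor and 629 to 1887 in tumor cells. Only Lyz2 and Ctss of it were called, higher in both comparisons with GCP, and as its brightest genes they weigh most in the sum. C1qb and Csf1r were not called, and Csf1r differed by -0.25 in pretumor against GCP. C1qa, Cd68, Aif1, Tyrobp, Fcer1g, Ptprc, Itgam and Cx3cr1 lay in the low band in all groups. The choroid plexus and meninges list (9 of 9 measured) summed to 1116 to 4305, 5769 to 15205 and 66.7 to 1337, with Kl and Ptgds called higher and Col1a2 and Col3a1 lower in pretumor against GCP, and Col1a1 and Col1a2 in the low band throughout. The median difference of this list from GCP was -0.65 in pretumor and -1.18 in tumor samples. In tumor against GCP Col1a2, Col3a1 and Igfbp2 were called lower and none higher. The part of any of these cells in the Tpi1 difference was not tested.

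**Figure D2:**
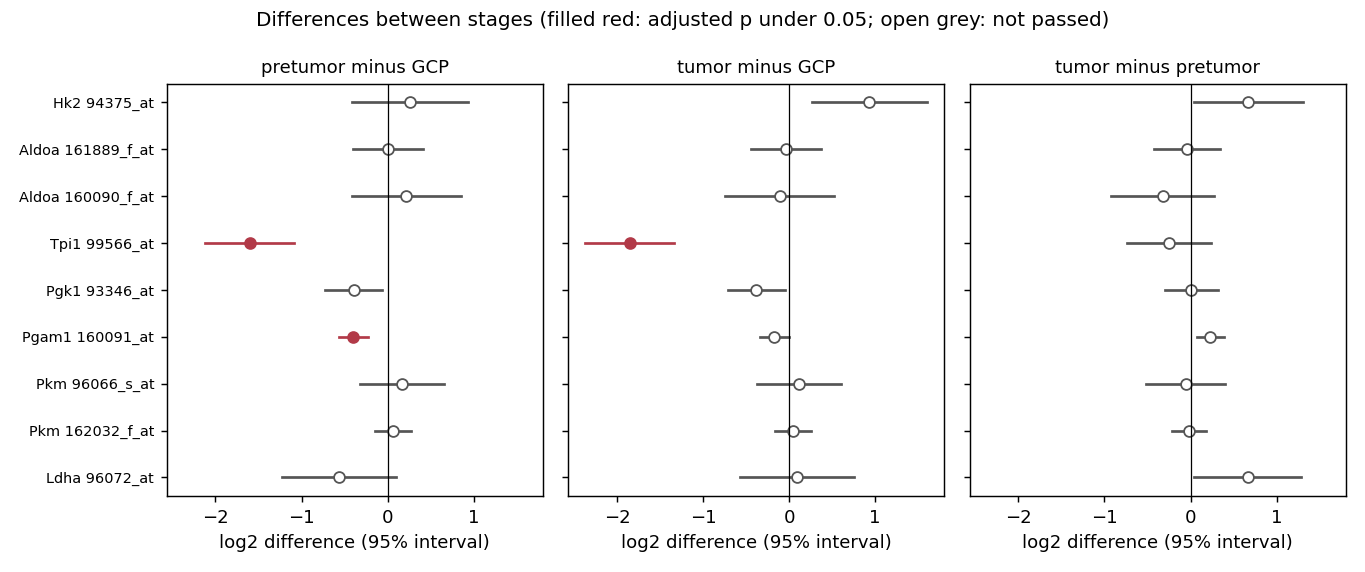
Log2 differences of the member probe sets in each comparison with 95% intervals from limma, filled where the adjusted p was under 0.05. The Tpi1 intervals against GCP, -2.12 to -1.09 for pretumor and -2.37 to -1.33 for tumor, lie furthest from 0.

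Gapdh makes the first energy-rich intermediate and is also a usual array control. A non-control probe set that the annotation shares between Gapdh and 2 related loci, 101214_f_at, did not pass in any comparison, with a tumor minus GCP difference of -0.27 (adjusted p = 0.644), and it cannot be assigned to Gapdh alone. The array's control probe sets for the 3′, middle and 5′ stretches of the Gapdh transcript were compared with exact permutation tests. The 3′ control averaged 12.58 ± 0.17 in tumor and 12.78 ± 0.02 in GCP samples, the difference with the smallest p of the 9 tests (-0.20, two-sided exact p = 0.0159, adjusted p = 0.143). The 3′ control over the 5′ control as a log2 ratio, a usual reading of RNA integrity, was 0.46 and 0.56 in GCP 1 and 2 but -0.018 in GCP 3 and 4. It was 0.79, 1.08, 0.0056, 0.85 and 0.19 in pretumor 1 to 5, and between 0.15 and 0.42 in tumor samples. With this ratio as a covariate, the Tpi1 differences were -1.59 in pretumor and -1.85 in tumor against GCP, both called, and Pgam1 in pretumor against GCP was also called (-0.41, adjusted p = 0.0244). No other member was called with it, though values moved, as given with Pkm and Ldha, and the uncalled Aldoa 161889_f_at differences became -0.14 in pretumor against GCP and 0.07 in tumor against pretumor.

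Pgk1 encodes phosphoglycerate kinase, which makes the first ATP of the chain. Probe set 93346_at stood at 9.49, 9.41, 9.39 and 9.55 in GCP 1 to 4, at 9.04, 9.37, 8.84, 9.18 and 8.90 in pretumor 1 to 5, and at 8.91, 8.91, 9.09, 8.85 and 9.62 in tumor 1 to 5. The pretumor arrays lay below all GCP arrays, though pretumor 2 only just, while tumor 5 was above every GCP array and the other tumor arrays were below them. Pgk1 averaged 9.07 ± 0.21 in pretumor and 9.46 ± 0.07 in GCP samples (difference -0.39, 95% interval -0.72 to -0.06), which did not pass (adjusted p = 0.214). Tumor samples averaged 9.08 ± 0.32, with a difference of -0.38 from GCP (adjusted p = 0.232). Without tumor 5 that difference was -0.52 and passed (adjusted p = 0.0179).

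Pgam1 encodes phosphoglycerate mutase, the step before enolase. Probe set 160091_at stood at 10.29, 10.09, 10.18 and 10.33 in GCP 1 to 4, at 9.78, 9.87, 9.78, 9.86 and 9.82 in pretumor 1 to 5, and at 9.92, 10.01, 10.03, 9.97 and 10.34 in tumor 1 to 5. The pretumor arrays were the lowest, without overlap with either other group, and tumor 5 stood above the other tumor arrays. Pgam1 averaged 9.82 ± 0.04 in pretumor and 10.22 ± 0.11 in GCP samples and was 1.32-fold lower in pretumor (-0.40, SE 0.08, adjusted p = 0.0116). This call ended under quantile normalisation (adjusted p = 0.0619), under scaling to the median of the brighter probe sets (0.0503) and with the GCP pairs averaged (0.0845). Tumor samples averaged 10.05 ± 0.17, with a difference of 0.23 from pretumor (95% interval 0.07 to 0.39, adjusted p = 0.209) and of -0.17 from GCP (adjusted p = 0.312). Without tumor 5 the difference from GCP was -0.24 and passed (adjusted p = 0.0184).

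Pkm encodes pyruvate kinase of muscle and most dividing cells, and no difference passed at either probe set. Probe set 96066_s_at averaged 8.08 ± 0.36 in GCP, 8.24 ± 0.29 in pretumor and 8.19 ± 0.38 in tumor cells. Its GCP arrays split into 8.37 and 8.40 in GCP 1 and 2 and 7.71 and 7.82 in GCP 3 and 4, and pretumor 3 stood at 7.74 below the other pretumor arrays, which had 8.28 to 8.48. GCP 3, GCP 4 and pretumor 3 are also the arrays with a Gapdh 3′ to 5′ ratio nearest 0. With that ratio as a covariate, pretumor minus GCP was -0.08 (SE 0.19) where it was 0.17 (SE 0.22) without, and tumor minus pretumor was 0.13 (SE 0.17) where it was -0.06 (SE 0.21) without, so both signs turned, and neither difference was called in either fit. Probe set 162032_f_at was steadier, at 7.35 ± 0.20, 7.42 ± 0.10 and 7.40 ± 0.14 at the 3 stages, and its tumor minus GCP interval ran from -0.16 to 0.25. The array values do not part the spliced forms of Pkm.

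Ldha encodes the lactate dehydrogenase subunit that favours lactate production. Probe set 96072_at stood at 5.23, 5.14, 4.78 and 4.88 in GCP 1 to 4, at 5.00, 4.68, 3.88, 4.78 and 3.86 in pretumor 1 to 5, and at 4.56, 4.79, 5.16, 5.04 and 5.96 in tumor 1 to 5. Pretumor 3 and 5 lay in the low band, tumor 5 was the highest, and all groups overlapped. Ldha averaged 5.10 ± 0.53 in tumor and 4.44 ± 0.54 in pretumor samples (difference 0.66, 95% interval 0.04 to 1.29, adjusted p = 0.404). Against GCP samples, at 5.01 ± 0.21, tumor differed by 0.09 (-0.57 to 0.76, adjusted p = 0.994) and pretumor by -0.57 (-1.23 to 0.09, adjusted p = 0.425). With the Gapdh 3′ to 5′ ratio as a covariate, pretumor minus GCP was -0.90 (SE 0.25, adjusted p = 0.0622) and tumor minus pretumor was 0.92 (SE 0.23, adjusted p = 0.0744), both larger and still not called.

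**Figure D3:**
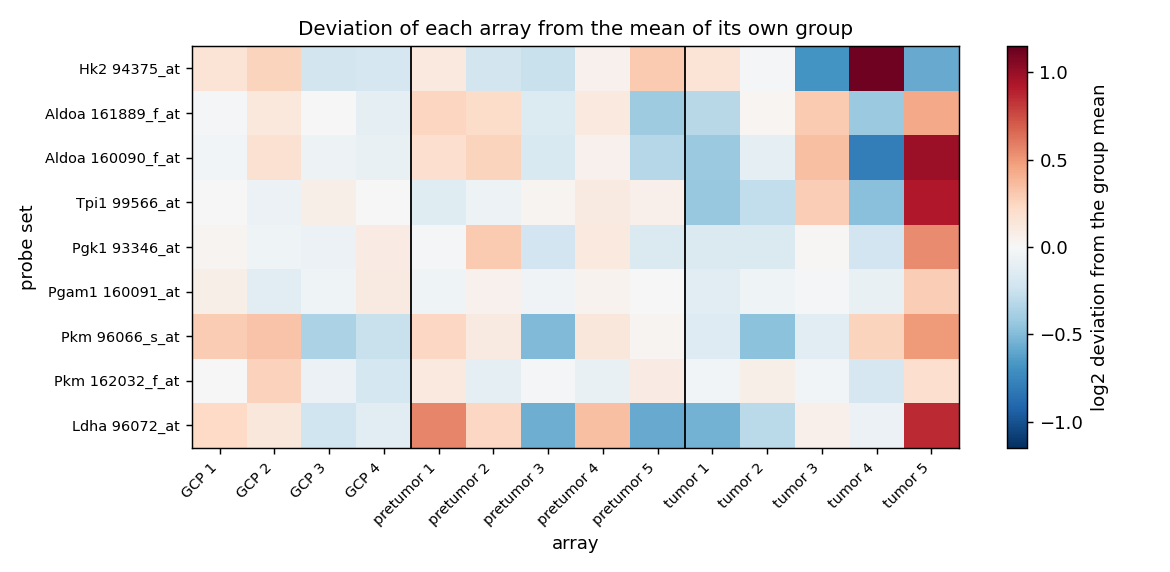
Deviation of each array's log2 intensity from its group's mean, for the 9 member probe sets above the low band. Tumor 5 is the highest tumor array in 8 of the 9, and tumor 4 is the lowest in 5 and the highest for Hk2.

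Among the tumor arrays, tumor 4 and tumor 5 stood apart over the members. Tumor 5 was the highest tumor array for 8 of the 9 member probe sets above the low band, all but Hk2, while over 3656 probe sets of that brightness it was the highest in 17.0%. Tumor 4 was the lowest tumor array for 5 of the 9, covering Aldoa, Tpi1, Pgk1 and Pkm, while over all such probe sets it was the lowest in 12.9%. It was also the array with the highest Hk2, at 10.27. Tumor samples had the largest SD of the 3 groups for 7 of the 9 member probe sets, and this held for 56.7% of all such probe sets. The median SD over the members was 0.12 in GCP, 0.23 in pretumor and 0.38 in tumor cells, beside 0.19, 0.23 and 0.30 over all. Probe sets of 1 gene share their source, so these counts are not counts of independent genes.

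Isozymes encode the same step from another gene and are set against the member within each array, as a log2 ratio whose size carries no meaning between probe sets but whose shift shows unequal change. Ldhb, the lactate dehydrogenase subunit typical of oxidative tissue (101990_at), averaged 7.75 ± 0.23 in tumor and 8.31 ± 0.03 in GCP samples and was lower in tumor (-0.56, adjusted p = 0.00938). That call ended with the replicate number as a block (adjusted p = 0.0534) and with the GCP pairs averaged (0.108). Ldhb was also lower in tumor than in pretumor samples, where pretumor averaged 8.27 ± 0.12 (-0.51, adjusted p = 0.0318). That call ended without any 1 GCP array, without pretumor 1, 2 or 4 and without tumor 2 or 3 (up to 0.0769). It also ended with a floor at 16 (0.0851), quantile normalisation (0.0921), median scaling (0.0839), these groups fitted alone (0.132), the replicate block (0.139), the Gapdh ratio as a covariate (0.0522), the GCP pairs averaged (0.0786), and pretumor 3 and tumor 2 left out (0.1001). The Ldha to Ldhb ratio was -3.08, -3.20, -3.53 and -3.39 in GCP 1 to 4, -3.45, -3.59, -4.36, -3.49 and -4.25 in pretumor 1 to 5, and -2.85, -2.94, -2.54, -2.86 and -2.07 in tumor 1 to 5. All 5 tumor arrays were above every array of the other groups. The ratio averaged -2.65 ± 0.36 in tumor and -3.83 ± 0.44 in pretumor samples (difference 1.18, two-sided exact permutation p = 0.00794, adjusted p = 0.0238 over 6 tests, 5 of 5 tumor arrays higher). Against GCP samples, at -3.30 ± 0.20, the tumor ratio differed by 0.65 (exact p = 0.00794, adjusted p = 0.0238), and 0.00794 is the smallest p that 5 against 4 or 5 arrays can give here. Leaving out any 1 GCP or tumor array raised the adjusted p of the tumor to GCP difference to between 0.0536 and 0.127. Fewer arrays also raise the smallest p this test can give, so these values cannot tell whether the difference rests on 1 array. Pretumor against GCP differed by -0.53 (exact p = 0.0794, adjusted p = 0.119). Ldha lay in the low band on pretumor 3 and 5, the arrays with the lowest Ldha to Ldhb ratios. With a floor at 16, tumor minus pretumor was 1.12 (exact permutation, adjusted p = 0.0238). Pretumor 3 and 5, and likewise GCP 3 and 4, had the lowest values of their group in both this ratio and the Gapdh 3′ to 5′ ratio. The Ldha to Ldhb test was not run with the Gapdh ratio as a covariate, so its part was not tested.

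Hk1, the hexokinase abundant in brain, averaged 12.15 ± 0.22 in GCP, 12.26 ± 0.07 in pretumor and 12.32 ± 0.19 in tumor cells, and no comparison passed. The Hk2 to Hk1 ratio averaged -3.17 ± 0.69 in tumor and -3.93 ± 0.45 in GCP samples, a difference of 0.76 (exact p = 0.119, adjusted p = 0.143). Against pretumor samples, at -3.78 ± 0.25, it differed by 0.62 (exact p = 0.0635, adjusted p = 0.119), and by 0.74 without tumor 5 (adjusted p = 0.0476). Tumor 4 had the highest ratio of all arrays. Aldoc, Eno2, Eno3, Pgam2 and Pklr, the isozymes of other steps, lay in the low band in every group, so no ratio was formed with them.

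**Figure D4:**
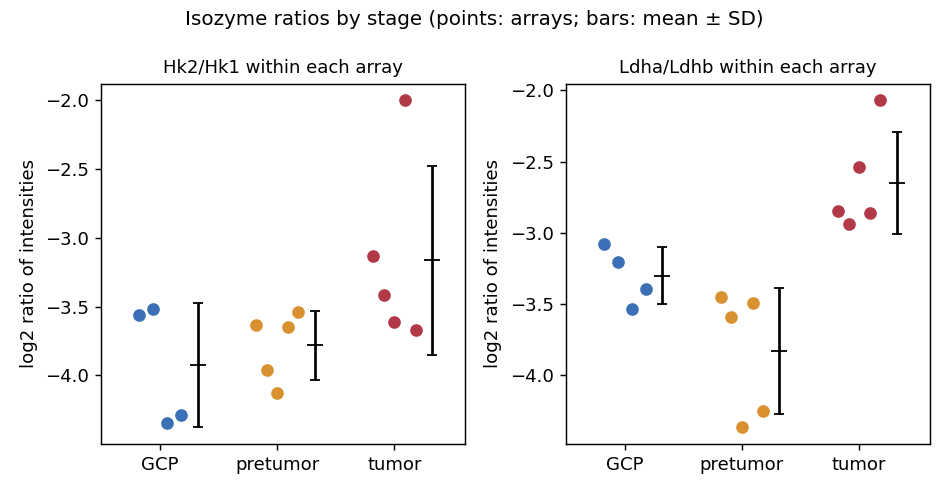
Log2 ratio of member to isozyme on each array, for Hk2 over Hk1 and Ldha over Ldhb, by stage with group means and SD. The tumor arrays lie between -2.94 and -2.07 for Ldha over Ldhb, above all pretumor and GCP arrays.

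The rest of the chain and the pathways joined to it are read against the 8251 genes of the array. Of those genes 5.24% were called in pretumor against GCP (1.99% higher, 3.25% lower), 5.62% in tumor against GCP (1.70% higher, 3.93% lower) and 1.09% in tumor against pretumor (0.133% higher, 0.957% lower). Against the same backgrounds the member genes called were 2, 1 and 0 of 7. Of the other glycolysis enzymes and isozymes, 18 of 23 listed were measured and 4 lay above the low band. In pretumor against GCP 1 was called higher (Aldoc) and 1 lower (Bpgm). In tumor against GCP 3 were lower (Aldoc, Bpgm, Ldhb), and in tumor against pretumor 3 were lower (Aldoc, Eno2, Ldhb). The call of Aldoc in tumor against GCP ended without GCP 1, 2 or 4, pretumor 2 or tumor 1, 2, 4 or 5 (adjusted p up to 0.107) and under 5 other settings, and that of Eno2 without pretumor 1 (0.051) and under 3 other settings. The phosphofructokinase genes Pfkl, Pfkm and Pfkp, which encode the committed step, all lay in the low band. Bpgm, which makes the bisphosphoglycerate side product (94815_at), averaged 7.93 ± 0.18 in pretumor and 8.68 ± 0.18 in GCP samples and was 1.68-fold lower in pretumor (adjusted p = 0.00887). In tumor samples it averaged 7.98 ± 0.25, 1.62-fold below GCP (adjusted p = 0.0117). With the GCP pairs averaged the adjusted p of Bpgm was 0.0845 and 0.0986, and with the tumor and GCP groups fitted alone it was 0.0505.

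Glucose and lactate transport had 9 of 10 genes measured and 2 above the low band in either comparison with GCP. Limma called 0 in pretumor against GCP (3 at an unadjusted p below 0.05), while 2 were lower in tumor against GCP (Slc16a1, Bsg) and 1 in tumor against pretumor (Bsg). Slc16a1, a lactate carrier, averaged 2.36 ± 0.23 in tumor and 4.02 ± 0.84 in GCP samples, so its means were at the edge of the low band or in it, and a floor at 16 ended the call (adjusted p = 0.896), as did a fit of these groups alone (0.0655). The glucose carriers Slc2a1 and Slc2a3 lay in the low band in all groups. Bsg, the chaperone of lactate carriers (101078_at), averaged 4.57 ± 0.30 in tumor, against 5.40 ± 0.29 in GCP and 5.49 ± 0.30 in pretumor samples. Its call against GCP (adjusted p = 0.032) ended without GCP 2, GCP 3, GCP 4, tumor 2, tumor 3, tumor 4 or tumor 5 (adjusted p up to 0.103), and with a floor at 16, these groups fitted alone, the replicate block or the GCP pairs averaged (0.0729 to 0.151). Its call against pretumor (adjusted p = 0.0397) ended without GCP 3, GCP 4, tumor 2 to 5 or pretumor 1, 3, 4 or 5 (up to 0.096), and under those same settings or with pretumor 3 and tumor 2 left out (0.0523 to 0.139).

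Pgm1, which feeds glycogen-derived glucose into the chain (104313_at), was lower at both later stages. It averaged 6.53 ± 0.22 in pretumor and 8.09 ± 0.07 in GCP samples and was 2.95-fold lower in pretumor (adjusted p = 3.19e-05). In tumor samples it averaged 6.37 ± 0.21, 3.29-fold below GCP (adjusted p = 1.27e-05). Both calls held under every alternative run. Of the 9 measured genes of glycogen and hexose entry, Pgm1 was the 1 called lower in pretumor against GCP and Pygm, in the low band, the 1 called higher. Pgm1 and Galt were lower in tumor against GCP, and Pygm and Galt, both in the low band, in tumor against pretumor. The call of Galt against GCP ended without any 1 of the 4 GCP arrays (adjusted p 0.0506 to 0.0557), and its call against pretumor without any 1 array but pretumor 3 or tumor 3 (up to 0.0898). Both also ended under other settings, 2 and 5 of them, among them a floor at 16.

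In the pentose phosphate pathway, 8 of 9 genes were measured and Taldo1, the transaldolase, was the 1 called in each comparison with GCP, both times lower. It averaged 9.11 ± 0.21 in tumor and 9.72 ± 0.09 in GCP samples, 1.53-fold lower in tumor (adjusted p = 0.00487, and 0.0628 with the GCP pairs averaged). Pretumor samples averaged 9.26 ± 0.14 (adjusted p = 0.024 against GCP), a call that ended without GCP 2, GCP 3, GCP 4, pretumor 1 or pretumor 2 (up to 0.0786), and with a floor at 16, quantile normalisation, the replicate block or the GCP pairs averaged (0.0505 to 0.189). Of 7 measured genes of pyruvate dehydrogenase and its kinases, Pdk3 was lower in pretumor than in GCP samples (8.09 ± 0.21 against 8.57 ± 0.16, adjusted p = 0.0455). That call ended without any 1 array but pretumor 3, tumor 4 or tumor 5 (up to 0.145) and under 9 other settings (up to 0.221), and limma called 0 genes of this list in tumor against GCP and in tumor against pretumor (3 and 0 at an unadjusted p below 0.05). The 6 gluconeogenesis genes lay in the low band with 0 calls by limma, and 1, 0 and 1 had an unadjusted p under 0.05.

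Of the citric acid cycle and malate shuttle, 23 of 24 genes were measured. In pretumor against GCP 2 were higher (Sdha, Gpd2) and 3 lower (Cs, Idh1, Sdhd), in tumor against GCP 3 were lower (Idh1, Sdhc, Sdhd), and in tumor against pretumor none was called, with 4 at an unadjusted p under 0.05. Idh1, the cytosolic isocitrate dehydrogenase (160571_at), averaged 7.16 ± 0.22 in pretumor and 8.47 ± 0.15 in GCP samples and was 2.47-fold lower in pretumor (adjusted p = 0.000758). Tumor samples averaged 7.35 ± 0.32, 2.17-fold below GCP (adjusted p = 0.00168), and both Idh1 calls held under every alternative run. The calls of Sdha in pretumor (up to 0.0838 without GCP 2, GCP 4, pretumor 1 to 4 or tumor 4), of Sdhc in tumor (up to 0.0723 without GCP 2, 3 or 4) and of Sdhd in tumor (up to 0.156 without any 1 array but GCP 1 or pretumor 1) ended when 1 array was left out. They also ended under 6 other settings for Sdha (up to 0.0849), 3 for Sdhc (up to 0.162) and 6 for Sdhd (up to 0.178). Gpd2 lay in the low band, and its pretumor call ended with a floor at 16 and with the GCP pairs averaged (adjusted p = 0.149).

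Among 20 measured genes of the hypoxia list outside glycolysis, P4ha1 and Ndrg1 were higher in pretumor than in GCP samples, P4ha1 was higher in tumor than in GCP samples, and Ndrg1 was lower in tumor than in pretumor samples. Ndrg1, a stress-induced gene abundant in myelinating glia (96596_at), averaged 7.50 ± 0.52 in pretumor and 5.60 ± 0.12 in GCP samples, 3.73-fold higher in pretumor (adjusted p = 0.00935). Tumor samples averaged 5.36 ± 0.71, 4.42-fold below pretumor (adjusted p = 0.00838). The oligodendrocyte list, 11 of 14 measured, summed to 220 to 342 in GCP, 762 to 1540 in pretumor and 107 to 235 in tumor cells, with 5 genes called higher in pretumor against GCP and 6 lower in tumor against pretumor. Mag, Mobp, Cnp, Sox10 and Ugt8a of that list lay in the low band in all groups, and its part in the Ndrg1 values was not tested. P4ha1, a collagen prolyl hydroxylase (104139_at), averaged 5.37 ± 0.36 in pretumor and 5.15 ± 0.47 in tumor samples, against 3.79 ± 0.52 in GCP samples, in the low band (adjusted p = 0.00978 and 0.0211). The tumor call ended without GCP 3, GCP 4 or tumor 1 (up to 0.0714), and with a floor at 16, these groups fitted alone, the replicate block or the GCP pairs averaged (0.0577 to 0.123). With the GCP pairs averaged, the pretumor calls of Ndrg1 and P4ha1 ended (adjusted p = 0.109 and 0.0718), and Ndrg1 in tumor against pretumor ended with these groups fitted alone (0.0662). Hif1a averaged 10.52 ± 0.29, 10.66 ± 0.19 and 10.38 ± 0.38 at the 3 stages and was not called.

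Of the 11 Myc factors, all measured, only Myc was called, in both tumor comparisons. Myc (104712_at) averaged 4.20 ± 0.70 in tumor, against 2.05 ± 0.06 in GCP samples (adjusted p = 0.00171) and 2.42 ± 0.35 in pretumor samples (adjusted p = 0.0129), the last 2 means in the low band. With a floor at 16 neither call remained (adjusted p = 0.931 and 1), and the call against pretumor also ended with these groups fitted alone (0.0823) and with the replicate block (0.0796). Mycn averaged 6.74 ± 0.36 in GCP, 7.49 ± 0.22 in pretumor and 6.89 ± 1.04 in tumor cells and was not called.

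The genes whose pattern over the 14 arrays was most like a called member were found by the root mean square difference of centred log2 values, over 2989 genes. For Tpi1, whose own SD over the arrays was 0.88, the nearest were Nsdhl, an enzyme of cholesterol synthesis (93868_at, 0.29), Idi1, an isoprenoid enzyme (96269_at, 0.33), and Chchd7, a mitochondrial protein gene (96676_at, 0.33). Nsdhl averaged 8.40 ± 0.11 in GCP, 6.67 ± 0.30 in pretumor and 6.66 ± 0.28 in tumor cells. For Pgam1, whose SD was 0.20, the nearest were probe set 101741_at, annotated to a microRNA gene (0.082), Mapk8, a stress kinase (104047_at, 0.10), and Cdk1, the mitotic kinase (100128_at, 0.10). A member with little variation has near neighbours for that reason alone, and the distances of Tpi1 and Pgam1 are not comparable.

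**Figure D5:**
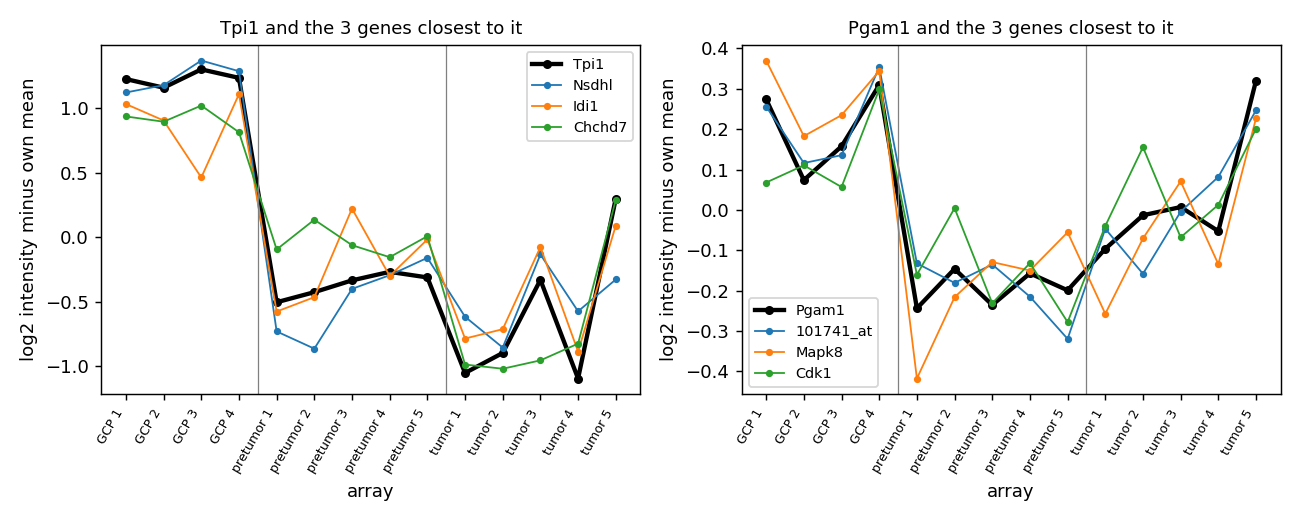
Centred log2 intensity on each array of Tpi1 and Pgam1 with the 3 probe sets nearest to each; lines only join the points of 1 probe set. Tpi1, Nsdhl and Idi1 are all high on the GCP arrays, and the Pgam1 set varies far less, with lows on the pretumor arrays.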

How the data were processed

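The deposited table holds 1 linear intensity per probe set and array, per the file headers (14 arrays, 12488 probe sets, 66 of them controls). The authors' summary and normalisation method is not stated in the labels or headers used. Intensities were floored at their 10th percentile (2.45) and taken to log2 without further normalisation. A model with 3 group means was fitted to 12422 probe sets with limma 3.58.1 in R 4.3.3 (11 residual and 0.83 prior degrees of freedom), with Benjamini-Hochberg adjustment over all of them, two-sided. The scripts were tested on simulated data. Both the number of arrays and the spread among them limit the precision.

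Symbols come from the platform annotation: 10833 probe sets have 1 symbol, 396 several and 1193 none. A listed gene is represented by its probe set with the highest mean; all member probe sets are given. Of other genes, up to 3 called members per list and contrast with the largest change are named, together with isozymes, markers and the 3 genes nearest to a called member; Pfkl, Pfkm, Pfkp, Slc2a1, Slc2a3, Hif1a, Mycn and Zic1 were chosen after their values were seen. The limit of 16 of the low band was also chosen after seeing the data. Members and lists were chosen with earlier results of these data known. Isozyme ratios and Gapdh controls were compared by exact permutation. Alternatives changed the floor, scaling, filter, model, weights, replicate block and single arrays; 3 were added after seeing the data: the Gapdh 3′ to 5′ ratio as a covariate, the GCP pairs averaged, and pretumor 3 and tumor 2 both left out. Motifs were counted in RefSeq promoter windows.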

Additional observations from a re-analysis of the deposited data

Results flagged for a closer look

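Each member probe set above the low band, isozyme ratio and Gapdh control was examined within each group for a single array apart from the rest, by Dixon's 95% limit. Of 45 groups examined 2 held such an array, and chance alone gives about 1 in 20. Pgam1 (160091_at) stood at 10.34 in tumor 5, while the other tumor arrays had 9.92 to 10.03. Pkm (96066_s_at) stood at 7.74 in pretumor 3, while the other pretumor arrays had 8.28 to 8.48.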

How the results depend on the processing

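No member changed direction while called under any alternative. Of 777 alternative values of single member probe sets, 723 kept direction and side of the threshold, 3 ended a call, 3 gained one and 48 changed sign without a call. The probe sets called numbered 541 in pretumor against GCP, 571 in tumor against GCP and 124 in tumor against pretumor. They were 194, 232 and 32 with a floor at 16, 1508, 998 and 393 with array weights, and 168, 198 and 69 with the GCP pairs averaged. With the 2 compared groups alone they were 335 in tumor against GCP and 50 in tumor against pretumor. Leaving out 1 array gave 331 to 624, 338 to 709 and 70 to 148; GCP 4 gave the lowest counts against GCP (331 and 338), and pretumor 1, pretumor 2 and tumor 4 gave 72, 70 and 70 in tumor against pretumor. The cause of these shifts was not tested, beyond the fewer arrays.

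Members called in pretumor against GCP were 2, and 1 under quantile normalisation, median scaling and the averaged GCP pairs. In tumor against GCP they were 1, and 2 when only probe sets with a mean of 16 or more were tested (fewer tests), and 1 to 3 with 1 array left out, 3 being without tumor 5. The Ldha to Ldhb difference ran from 0.50 to 0.72 in tumor against GCP with 1 array left out; with pretumor 3 and tumor 2 both left out it was 0.72 there and 1.11 in tumor against pretumor, neither still under the threshold (adjusted p = 0.0857), since fewer arrays raise the smallest p. The Hk2 to Hk1 difference in tumor against pretumor ran from 0.33 to 0.74. With a floor at 16 the calls of Aldoc, Eno2, Pygm, Galt, Gpd2, Myc and Slc16a1, in or near the low band, ended, and so did those of brighter probe sets: Ldhb in tumor against pretumor, Bsg in both, Taldo1, Sdha and Pdk3 in pretumor, and Sdhd and P4ha1 in tumor against GCP. Other probe sets for the isozyme pairs were not run, being in the low band.

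Same-numbered arrays of different groups had correlations of deviations from -0.35 to 0.58. Between pretumor and GCP they were 0.36, 0.32, 0.58 and -0.28 for numbers 1 to 4. The labels name no pairing, and arrays of unlike number were not compared, so these values cannot tell whether the numbers pair the samples. The replicate block moved the counts to 383, 436 and 76 and left the members called at 2, 1 and 0.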

Other observations

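Of the 10 genes on either side of Tpi1 on its chromosome, 19 were measured and 5 lay above the low band. None of these 5 was called. Of those in the low band, Mlf2 was called in pretumor against GCP (-0.40, adjusted p = 0.0387), Lpcat3 in tumor against GCP (-0.37, adjusted p = 0.049) and Eno2, the neuronal enolase, in tumor against pretumor (-0.35, adjusted p = 0.0174). That is 1 of 19 in each comparison, beside 5.24%, 5.62% and 1.09% of all genes called in the same order. Emg1 (160531_at) differed by -0.14 in pretumor and by 0.21 in tumor against GCP, neither called.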
